A study of Mus musculus with 12 samples.

Results

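The 9 genes described here encode neuronal calcium-binding proteins: Cabp7 and Cabp1, the calmodulin genes Calm2 and Calm3, the calcium sensors Hpcal4, Ncald and Vsnl1, and the calcium buffers calbindin (Calb1) and calretinin (Calb2). They were taken by name from the 48526 genes listed in the deposited tables, and the set was chosen because Cabp7 was high in the 10-month transgenic libraries alone. The level of Cabp7 is therefore given as a description, with no test. RNA came from the cortex of untreated mice of the C57Bl/6 strain, 3 animals in each of 4 groups: non-transgenic controls at 3 and at 10 months, and mice labelled transgenic for TAU58/2 at the same ages. TAU58/2 mice carry a mutant human tau transgene under a Thy1 promoter that is active in neurons, so the transgene models tau expressed in neurons and not in other cells. The labels give no other allele or treatment in any group. The deposited unit is FPKM, which scales the fragments of a gene by transcript length and library size, and libraries are called by age, genotype label and replicate number.

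Proteins of these families bind calcium through EF-hands, loops of acidic residues held between helices. Sensors such as calmodulin, the CaBP proteins and the visinin-like proteins change shape when calcium enters the loop and then act on channels, kinases and phosphatases, whereas buffers such as calbindin and calretinin mainly limit how far and how long calcium spreads in a neuron. Cabp7, also called calneuron 2, is anchored in the membrane of the Golgi apparatus and holds back phosphatidylinositol 4-kinase beta, the product of Pi4kb, when calcium is low.

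The loop that gives these proteins their name is shown for the calmodulin and CaBP members, because it lets Calm2 and Calm3, which encode the same protein, be seen as separate sequences that FPKM values can tell apart. Each sequence is the first loop of the coding sequence that matches the EF-hand pattern, 36 bases on the coding strand, from the GENCODE M21 transcripts of GRCm38. Capitals mark bases that differ from Calm2, which serves as the reference.
Calm2: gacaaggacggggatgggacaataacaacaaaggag
Calm3: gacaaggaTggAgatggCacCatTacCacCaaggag
Cabp1: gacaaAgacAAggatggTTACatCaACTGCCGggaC
Cabp7: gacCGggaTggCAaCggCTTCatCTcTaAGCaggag
The loop spans codons 21 to 32 in Calm2 and Calm3, 95 to 106 in Cabp1 and 46 to 57 in Cabp7. Calm3 differs from Calm2 at 7 bases, none of which alters the encoded amino acids. Over the whole coding sequence of 447 bases, Calm2 and Calm3 are identical at 82.55% of bases, and their longest shared stretch is 17 bases. Cabp1 and Cabp7 each differ from Calm2 at 16 bases of the loop, and both encode other amino acids in the loop. The same pattern was found 2 times in the coding sequence of Cabp7, 3 times in Cabp1, Hpcal4, Ncald and Vsnl1, 4 times in Calm2, Calm3 and Calb1, and 5 times in Calb2.

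Libraries summed to between 125933 and 158077 FPKM, and their depth relative to the 10-month control 1 library ranged from 1.07 to 1.38 for the other libraries, as far as steps in the low values show it; absolute depth is unknown. The labels were checked on the mouse tau gene Mapt and on Thy1, the source of the transgene's promoter. At 3 months Mapt was 43.3 to 47.6 FPKM in the transgenic libraries against 6.64 to 12.0 in controls, and Thy1 was 410 to 441 against 105 to 140. At 10 months the groups overlapped in both genes: Mapt was 42.6, 12.4 and 3.31 FPKM with the transgenic label and 42.7, 8.13 and 9.08 in controls, and Thy1 was 172, 114 and 159 against 115, 314 and 176. Every direction at 10 months therefore refers to the libraries by their label. The 10-month transgenic 1 library listed the pituitary hormone genes Gh and Prl at 11228 and 1482 FPKM, so that the sum of 8 pituitary markers was 13477 there and 1.01 and 2.88 in the other 10-month libraries labelled transgenic. The 10-month transgenic 3 library had the highest FPKM total, 158077, the fewest genes above 0, 12828, and, among genes averaging 5 FPKM or more, 219 listed under an eighth of their median over the libraries, against 100 to 128 in the other 11; without it the log2 difference of Cabp7 between genotypes at 10 months was 3.04. Cabp7 was chosen for its level in the 10-month libraries labelled transgenic, so its difference without 1 of them was largely set by that choice. In whole cortex, fewer cells of a type and less RNA per cell cannot be told apart.

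Cabp7 was low in 9 libraries and high in 3. The 3-month controls listed it at 0.729, 1.03 and 0.839 FPKM, and the 3-month transgenic libraries at 0.577, 1.07 and 1.52. The 10-month controls listed it at 0.832, 1.92 and 0.925 FPKM. The 10-month libraries labelled transgenic listed it at 12.2, 8.40 and 10.9 FPKM. All 3 of the last group lay above all 9 others, and the first 3 groups overlapped one another. The means were 0.865 ± 0.152, 1.06 ± 0.470, 1.23 ± 0.606 and 10.5 ± 1.94 FPKM (SD, n = 3 each). On the scale log2(FPKM + 0.1), which understates differences of low genes, the transgenic minus control difference of Cabp7 was 3.07 at 10 months and 0.18 at 3 months, and the 10 minus 3 month difference was 3.27 in transgenics and 0.38 in controls. These differences are the ones that led to the choice of the gene. In the authors' deposited table, the transgenic over control ratio of Cabp7 was 5.32 at 10 months and 1.05 at 3 months.

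**Figure D1:**
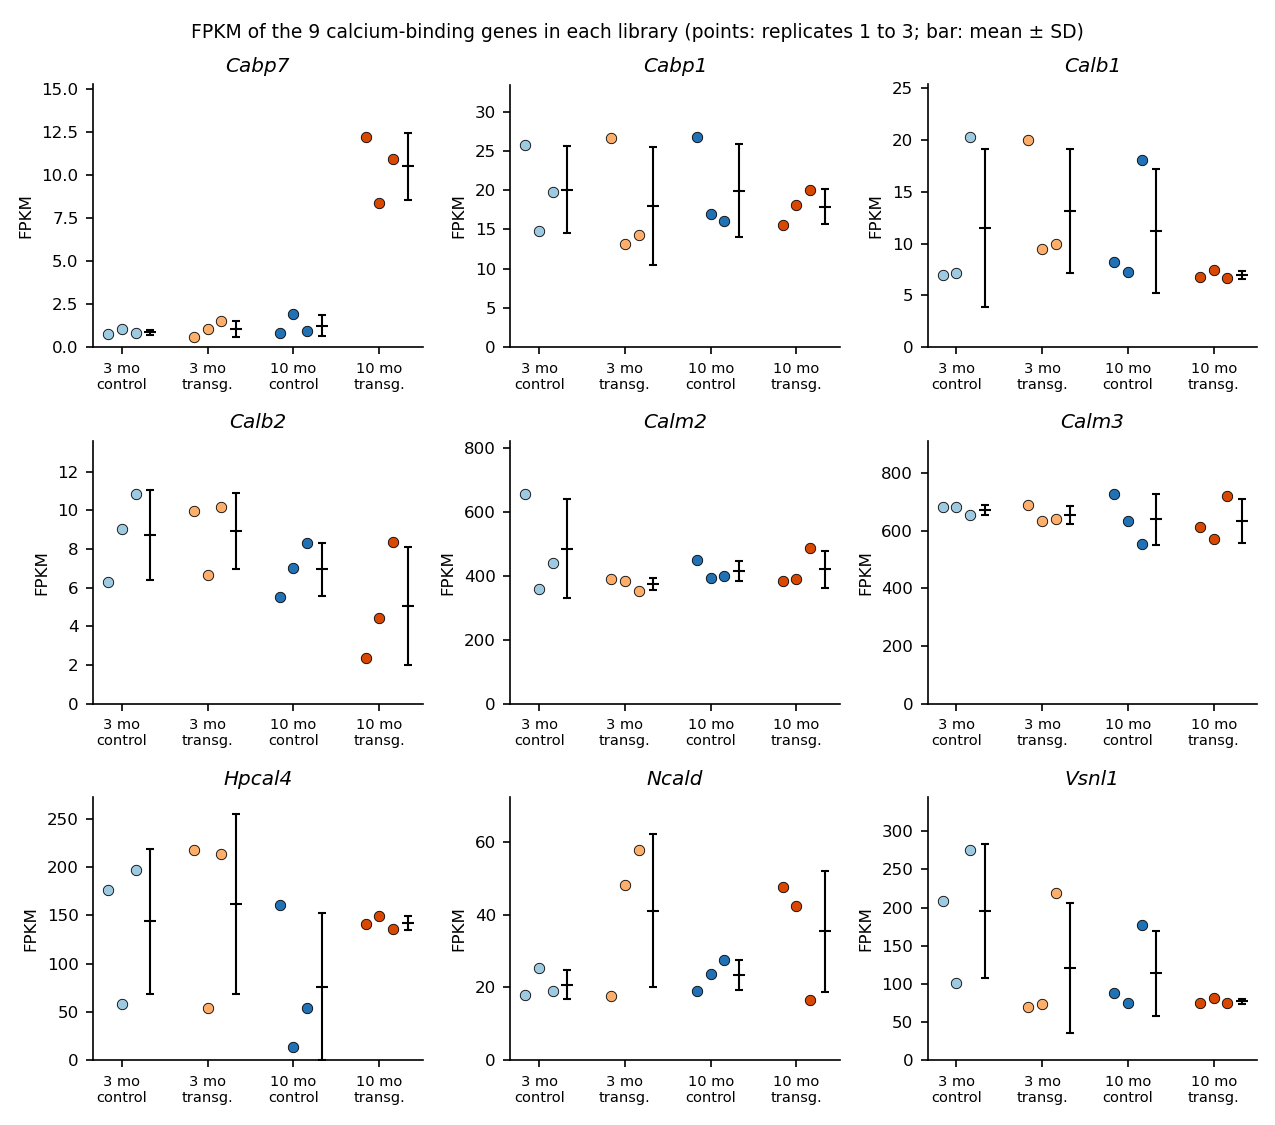
FPKM (y axis, from 0, with its own scale in each panel) of the 9 genes in the 12 libraries, grouped by age and genotype label (x axis); points are replicates 1 to 3 from left to right and the bar is the group mean ± SD. Cabp7 stood at 8.40 to 12.2 FPKM in the 10-month libraries labelled transgenic and at 0.577 to 1.92 in the other 9, while the groups of the other genes overlapped at each age.

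The separation was measured as the log2 distance between the lowest 10-month library labelled transgenic and the highest of the other 9. For Cabp7 it was 2.07, from 1.92 to 8.40 FPKM. Of the 9846 genes tested, 75 (0.762%) had all 3 of these libraries above the other 9. By the same count, 51 genes (0.518%) had the 10-month controls highest, 31 (0.315%) the 3-month transgenic libraries and 23 (0.234%) the 3-month controls. Within the 75, Cabp7 ranked 2nd by distance, after Pnma3 with 2.08 and ahead of Npcd with 1.01. Cabp7 was chosen for being high in the 10-month libraries labelled transgenic alone, so its rank restates that choice and is a description. Pnma3, a gene of the paraneoplastic antigen family, was listed at 0 in all 9 other libraries. It was 0.323 FPKM in the lowest 10-month library labelled transgenic, so its distance is set by the added 0.1. Only in the 10-month group labelled transgenic did Pnma3 average the 1 FPKM needed for testing. Npcd, a neuronal pentraxin gene with a chromo domain, went from 3.88 to 7.92 FPKM.

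The Cabp7 gene lies on chromosome 11 from 4736892 to 4746778 on the minus strand of GRCm38 and has 1 annotated transcript. Its last exon shares 338 of the transcript's 2628 bases, from 4737332 to 4737669, with the end of Zmat5, a zinc finger gene on the plus strand. The kit was strand-specific, per the labels' protocols, but the strand setting of the authors' counting is not given in the sources used here. In those bases fragments of the 2 genes may therefore not have been separated. Zmat5 was listed at 5.52, 2.02 and 3.16 FPKM in 3-month controls and 1.96, 1.51 and 2.07 in 3-month transgenic libraries. At 10 months it was 2.66, 0.694 and 1.85 FPKM in controls and 1.90, 1.77 and 4.70 in libraries labelled transgenic. Zmat5 overlapped between all groups, and its part in the level of Cabp7 was not tested. The next expressed neighbour on the other side, the tumour suppressor gene Nf2, was 7.75, 5.69 and 1.43 FPKM in the 10-month libraries labelled transgenic. In 10-month controls Nf2 was 4.78, 5.14 and 5.64 FPKM. Nipsnap1, beyond Nf2, was 19.7, 16.5 and 22.8 FPKM with the transgenic label against 8.35, 17.1 and 8.81. Uqcr10, at lower coordinates, was 5.43, 2.86 and 2.76 FPKM against 49.1, 2.19 and 42.5. The 10-month groups of each of these genes overlapped. Read on the strand of the transcripts, none of the 31-base words of Cabp7 occurred in a transcript of another gene; the bases shared with Zmat5 lie on opposite strands.

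The summed levels of markers of several cell types and tissues did not overlap between the 10-month groups. For comparison, 8.26% of all single genes tested had 10-month groups without overlap. No marker gene of any list had a limma adjusted p under 0.05 between these groups. The part of the markers in the level of Cabp7 was not tested. The summed FPKM of 8 excitatory neuron markers was 156 to 237 in the libraries labelled transgenic and 278 to 282 in controls; all 8 had a lower mean log2 value with the transgenic label, none with a limma adjusted p under 0.05, and Rorb was listed at 0 in all 3 libraries, as it was in 10-month controls 1 and 3, in 3-month control 3 and in 3-month transgenic 1. The summed level of 8 inhibitory neuron markers was 415 to 538 FPKM against 95.6 to 394, 4 of the 7 tested being higher, with the neuropeptide gene Sst alone at 286 to 400 against 0, 267 and 0.495. The 3-month excitatory sums were 246 to 288 FPKM in transgenic libraries and 153 to 305 in controls. The latter range holds the excitatory sums of the 10-month libraries labelled transgenic. The 3-month inhibitory sums were 70.4 to 581 FPKM in transgenic libraries and 89.1 to 409 in controls. At 10 months the sums of 6 endothelial markers were also higher without overlap, 20.4 to 36.8 against 15.4 to 19.1 FPKM, with 3 of 5 tested higher. The same held for 6 choroid plexus markers, 76.6 to 499 against 47.3 to 74.0, with 2 of 2 tested higher and 4 untested. Of the tested genes, Ttr overlapped, at 439, 30.1 and 63.5 against 29.3, 32.1 and 15.1 FPKM. Enpp2 did not, at 57.0, 45.4 and 45.6 against 44.7, 33.9 and 32.2 FPKM. The sum of 7 olfactory bulb markers was lower, 0.533 to 1.28 against 1.60 to 6.96 FPKM, with 1 of 1 tested lower and 6 untested. Eomes, Cdhr1, Tbx21 and Sp8 were listed at 0 in all 6 libraries. The tested gene, Trh, was 0, 1.27 and 1.08 against 1.54, 6.93 and 2.07 FPKM. It made up nearly all of the sum except in 10-month transgenic 1, where Th was 0.533 FPKM. The 3-month control sums, 0.478 to 4.83 FPKM, held those of the 10-month libraries labelled transgenic. The 3-month transgenic sums had a median of 1.13 FPKM. The 3-month choroid plexus sums were 36.8 to 354 FPKM in transgenic libraries and 37.4 to 791 in controls. The 10-month sums of 6 oligodendrocyte markers overlapped, 270 to 544 against 215 to 341 FPKM. Of these markers 6 of 6 were higher, with a median log2 difference of 0.66 and 2 at a limma unadjusted p under 0.05, against 4.4% of all genes. Between 3 and 10 months 5 of the 6 were lower in controls, with a median of -0.84. In transgenics 3 were higher and 3 lower with age, with a median of -0.09. The hippocampus sums overlapped, 37.3 to 56.7 against 41.1 to 50.7 FPKM, and Prox1, Dsp and Lct, markers of the dentate gyrus, were listed at 0 in every library. Pituitary markers were high in 1 of the 3 libraries only, and without it the difference of Cabp7 at 10 months was 2.96. That value was largely set by the choice of Cabp7, and the part of the pituitary transcripts in its level was not tested.

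The 5 tested genes whose log2 values followed Cabp7 most closely over the 12 libraries were Tnip2 (Pearson r = 0.887, Spearman rho = 0.734), Pnma3 (0.887 and 0.734), H2-Q4 (0.887 and 0.840), H2-Aa (0.871 and 0.815) and H2-Ab1 (0.865 and 0.801). These are descriptions that rest on the 3 high libraries. Pnma3, H2-Q4, H2-Aa and H2-Ab1 averaged the 1 FPKM needed for testing only in the 10-month libraries labelled transgenic. Their likeness to Cabp7 was therefore largely set by the filter. H2-Aa and H2-Ab1 encode the chains of an MHC class II molecule and H2-Q4 an MHC class I molecule. Their levels were low: in the 10-month libraries labelled transgenic, H2-Aa was 4.10, 0.586 and 0.672 FPKM, with the highest value in the library that held pituitary transcripts, and 1.06 in the 10-month control 2 library. Tnip2, an adaptor protein of the NF-kappaB pathway, was 2.60, 1.65 and 3.03 FPKM in the same libraries and between 0.753 and 1.45 in the other 9. Among the other 8 members, Pearson r with Cabp7 ran from -0.61 for Calb2 to 0.33 for Ncald.

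Cabp1 encodes caldendrin and its shorter forms, which bind voltage-gated calcium channels and inositol trisphosphate receptors, and lies on chromosome 5 from 115168689 to 115194381 on the minus strand. It was listed at 25.8, 14.8 and 19.7 FPKM in 3-month controls, 26.7, 13.2 and 14.3 in 3-month transgenic libraries, 26.8, 17.0 and 16.1 in 10-month controls and 15.5, 18.2 and 20.0 in 10-month libraries labelled transgenic. In the 3 groups other than the last, replicate 1 was the highest, and all 4 groups overlapped. The transgenic minus control log2 difference of Cabp1 was -0.12 at 10 months (95% confidence interval -0.84 to 0.59) and -0.19 at 3 months (-0.91 to 0.53), with limma adjusted p = 1 at both ages. Caln1, the closest relative of Cabp7 and a Golgi protein of the same kind, was 12.4, 15.1 and 7.56 FPKM in 10-month libraries labelled transgenic and 11.5, 15.9 and 15.9 in controls, a log2 difference of -0.34 with SE 0.29 (limma adjusted p = 0.969), which was -0.06 without 10-month transgenic 3 and -0.56 without 10-month transgenic 2. Pi4kb, named here for its known link to Cabp7, was 10.1, 9.78 and 7.97 FPKM against 9.41, 9.69 and 5.04, a log2 difference of 0.25 with SE 0.31 (limma adjusted p = 0.972).

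The calmodulin members were the most abundant of the 9 genes and among the steadiest. Calm3, on chromosome 7 from 16915379 to 16924114 on the minus strand, was listed at 683, 682 and 653 FPKM in 3-month controls and at 688, 632 and 640 in 3-month transgenic libraries. At 10 months it was 729, 633 and 554 FPKM in controls and 613, 570 and 719 in libraries labelled transgenic. Its highest value was 1.31 times its lowest over the 12 libraries, while only 6.66% of the 4534 genes averaging 5 FPKM or more had a ratio under 1.5. The transgenic minus control log2 difference of Calm3 was -0.01 at 10 months (95% confidence interval -0.31 to 0.30) and -0.04 at 3 months (-0.35 to 0.26), with limma adjusted p = 1 at both ages; the 3-month value was 0.067 after quantile normalization.

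Calm2, on chromosome 17 from 87433412 to 87446935 on the minus strand, was listed at 657, 358 and 440 FPKM in 3-month controls and at 389, 383 and 354 in 3-month transgenic libraries. At 10 months it was 450, 393 and 399 FPKM in controls and 382, 391 and 486 in libraries labelled transgenic. The 3-month control 1 library stood alone at the top, and the groups overlapped at both ages. The log2 difference of Calm2 was 0.01 at 10 months (95% confidence interval -0.45 to 0.48) and -0.32 at 3 months (-0.79 to 0.14), with limma adjusted p = 1 at both ages; the 10-month value was -0.0050 with size factors and -0.040 after quantile normalization. Leaving out 3-month control 1 gave -0.08 at that age, and leaving out control 2 gave -0.52. Of the 31-base words of the Calm2 transcripts, 18.1% also occur in transcripts of other genes, most of them in the processed pseudogene Gm7308, which was listed at 0.547 to 12.0 FPKM; for Calm3 the share was 4.99%, all with Gm5881, listed at 0.449 to 3.29 FPKM. Fragments from such words may have been split between the copies.

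Hpcal4, Ncald and Vsnl1 belong to the neuronal calcium sensors, myristoylated proteins that move to membranes when they bind calcium. Each of them took a high level in some libraries and a low level in others, but not in the same ones. Hpcal4, also called visinin-like protein 2, lies on chromosome 4 from 123183227 to 123194701 on the plus strand. It was listed at 176, 58.0 and 197 FPKM in 3-month controls and 218, 54.1 and 214 in 3-month transgenic libraries. At 10 months it was 161, 13.5 and 54.0 FPKM in controls and 141, 149 and 135 in libraries labelled transgenic. The 10-month libraries labelled transgenic were close together and lay between the high and the low controls of both ages. The log2 difference of Hpcal4 was 1.53 at 10 months with SE 0.86 (95% confidence interval -0.39 to 3.45, limma adjusted p = 0.969), and leaving out 10-month control 2 gave 0.61, leaving out control 1 gave 2.39. At 3 months the difference was 0.11 (-1.81 to 2.03, limma adjusted p = 1).

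Ncald, neurocalcin delta, lies on chromosome 15 from 37366175 to 37792570 on the minus strand, a span that overlaps 11 other annotated genes. It was 17.9, 25.2 and 19.0 FPKM in 3-month controls and 17.5, 48.0 and 57.7 in 3-month transgenic libraries. It was 19.0, 23.7 and 27.4 FPKM in 10-month controls and 47.5, 42.4 and 16.4 in libraries labelled transgenic. The 4 libraries above 40 FPKM all carried the transgenic label, 2 at each age, while the lowest library of each transgenic group was below every control of its age. The log2 difference of Ncald was 0.47 at 10 months (95% confidence interval -0.62 to 1.57, limma adjusted p = 0.969) and 0.83 at 3 months (-0.26 to 1.92, limma adjusted p = 1). With 1 library left out it ran from 0.19 (without 10-month transgenic 1) to 0.95 (without 10-month transgenic 3) at 10 months, and from 0.50 (without 3-month transgenic 3) to 1.36 (without 3-month transgenic 1) at 3 months.

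Vsnl1, visinin-like protein 1, which is measured in cerebrospinal fluid as a marker of neuronal injury, lies on chromosome 12 from 11325242 to 11436613 on the minus strand. It was 209, 101 and 276 FPKM in 3-month controls and 69.2, 73.9 and 219 in 3-month transgenic libraries. It was 88.2, 75.0 and 178 FPKM in 10-month controls and 75.1, 80.8 and 74.9 in libraries labelled transgenic. Only the 10-month libraries labelled transgenic held no value above 100 FPKM, and they overlapped the lower controls. The log2 difference of Vsnl1 was -0.46 at 10 months (95% confidence interval -1.60 to 0.68, limma adjusted p = 0.969) and -0.79 at 3 months (-1.93 to 0.35, limma adjusted p = 1). Leaving out 10-month control 3 gave -0.08 at that age, and leaving out control 2 gave -0.70; at 3 months it ran from -1.33 (without 3-month transgenic 3) to -0.48 (without 3-month control 3).

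Calb1 and Calb2 mark different classes of cortical neurons, calretinin in particular a class of interneurons. Calb1 lies on chromosome 4 from 15881264 to 15908064 on the plus strand, and Calb2 on chromosome 8 from 110137502 to 110168210 on the minus strand. Calb1 was 7.00, 7.19 and 20.3 FPKM in 3-month controls and 20.0, 9.48 and 9.96 in 3-month transgenic libraries. It was 8.20, 7.30 and 18.1 FPKM in 10-month controls and 6.81, 7.44 and 6.64 in libraries labelled transgenic. Each of the other 3 groups held 1 library at 18.1 to 20.3 FPKM, and the 10-month libraries labelled transgenic held none. The genotype difference of Calb1 was -0.56 on the log2 scale at 10 months (95% confidence interval -1.64 to 0.52, limma adjusted p = 0.969) and 0.29 at 3 months (-0.79 to 1.37, limma adjusted p = 1); without the 10-month control 3 library the former was -0.15. With age, the transgenic groups of Calb1 did not overlap, the lower of them at 10 months, as for 3.65% of all genes tested; the log2 difference was -0.82 (-1.90 to 0.26, limma adjusted p = 0.974), and -0.48 without 3-month transgenic 1.

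Calb2 was 6.27, 9.03 and 10.9 FPKM in 3-month controls and 9.98, 6.65 and 10.2 in 3-month transgenic libraries. It was 5.52, 7.02 and 8.29 FPKM in 10-month controls and 2.33, 4.41 and 8.35 in libraries labelled transgenic. The lowest libraries, 10-month transgenic 1 and 2, lay below all others, and 10-month transgenic 3 was above all 10-month controls. The genotype difference of Calb2 on the log2 scale was -0.62 at 10 months (95% confidence interval -1.56 to 0.32, limma adjusted p = 0.969) and 0.04 at 3 months (-0.90 to 0.99, limma adjusted p = 1). Without the 10-month transgenic 1 library, which held the pituitary transcripts, the 10-month value of Calb2 was -0.17, and without 10-month transgenic 3 it was -1.07. Its difference between 10 and 3 months in transgenics was -0.97 (limma unadjusted p = 0.0445, adjusted p = 0.974), and -0.52 without 10-month transgenic 1 or -1.42 without 10-month transgenic 3. The authors' deposited table gives Calb2 a transgenic over control ratio of 0.590 at 10 months, with a p-value of 0.00834 and a q-value of 0.827.

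None of the 8 members other than Cabp7 passed the limma adjusted p threshold of 0.05 in any of the 5 comparisons. All 9 members passed the filter on low values: group means reached 1 FPKM in 3 groups for Cabp7 and in all 4 for the others. The background share of genes called was 0.0102% for the genotype difference at 10 months, 0.0406% at 3 months, 0.0508% for the difference between the ages in the genotype effect, 0.0305% for age in controls and 0.0203% for age in transgenics. A count of 0 of 8 does not stand apart from such shares. At an unadjusted p under 0.05 the count was also 0 of 8 in the first 4 comparisons, where 4.4%, 3.39%, 3.32% and 4.19% of all genes were under it, and 1 of 8, Calb2, for age in transgenics, against 4.31%. The smallest adjusted p-values of the 8 members in limma were 0.969, 1, 0.987, 0.994 and 0.974 in the same order. Their genotype differences were positive in 3 and negative in 5 at 10 months, with a median of -0.07 beside 0.01 over all genes, and positive in 4 and negative in 4 at 3 months, with a median of 0.00 beside 0.02. None of the 8 had groups without overlap between genotypes, against 8.26% of all genes at 10 months and 7.98% at 3 months, nor with age in controls, against 10.1%; with age in transgenics it was Calb1 alone, against 9.43%.

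**Figure D2:**
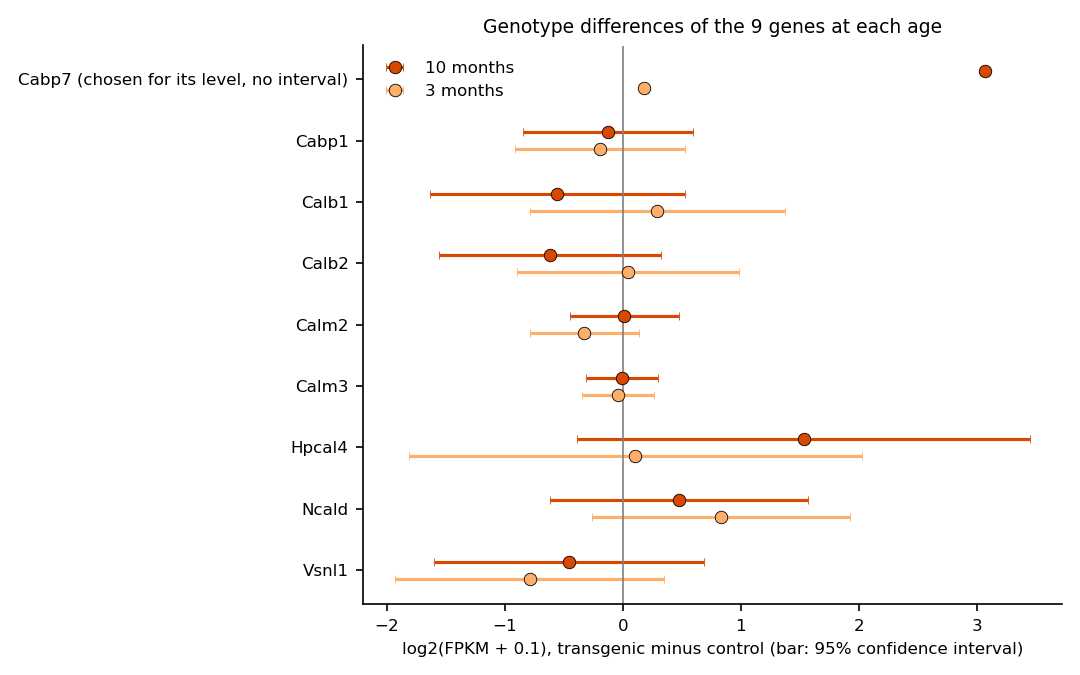
Transgenic minus control difference of log2(FPKM + 0.1) (x axis) of the 9 genes (y axis) at 10 months (dark) and 3 months (light), with 95% confidence intervals from limma for the 8 genes that were tested. Every interval shown includes 0, the narrowest for Calm3 (-0.31 to 0.30 at 10 months) and the widest for Hpcal4 (-0.39 to 3.45), while Cabp7 lies at 3.07 and 0.18.

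The order of the members by FPKM changed with Cabp7. In the 10-month libraries labelled transgenic, Calm3 (570 to 719 FPKM) was followed by Calm2 (382 to 486), Hpcal4 (135 to 149) and Vsnl1 (74.9 to 80.8), whose ranges did not overlap. Ncald (16.4 to 47.5 FPKM) and Cabp1 (15.5 to 20.0) overlapped each other, as did Calb1 (6.64 to 7.44) and Calb2 (2.33 to 8.35). Cabp7, at 8.40 to 12.2 FPKM, stood above Calb1 and Calb2 in each of these 3 libraries. In each of the other 9 it was the lowest of the 9 genes, at most 1.92 FPKM against at least 5.52 for Calb2 and 7.00 for Calb1. Hpcal4 and Vsnl1 overlapped in the other 3 groups.

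Most of the members varied widely over the 12 libraries, as did genes across the table. The highest value was 21.2 times the lowest for Cabp7, 16.1 times for Hpcal4, 4.66 for Calb2, 3.98 for Vsnl1, 3.51 for Ncald, 3.06 for Calb1, 2.04 for Cabp1 and 1.86 for Calm2. The median ratio of the 4534 genes averaging 5 FPKM or more was 3.00, and 33.4% of them had a jump of more than 1 log2 unit somewhere in the order of the 12 libraries. Among the members such a jump was found in Cabp7, where it set the 10-month libraries labelled transgenic apart. It was also found in Hpcal4, where it set 1 library apart, 10-month control 2. Cabp7 averaged under 5 FPKM and is not among the 4534 genes. Its ratio and jump come from the values that led to its choice. The libraries that held high values differed from gene to gene. For Calb1 they were 3-month control 3, 3-month transgenic 1 and 10-month control 3, for Vsnl1 3-month controls 1 and 3, 3-month transgenic 3 and 10-month control 3, and for Ncald 2 transgenic libraries of each age.

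**Figure D3:**
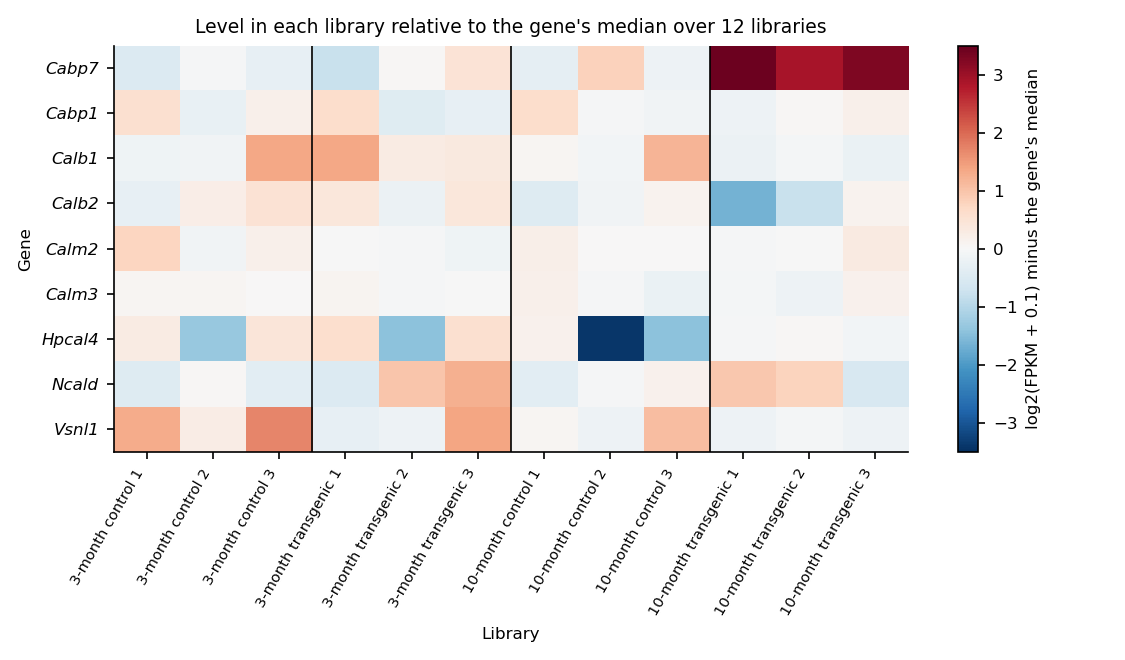
Level of the 9 genes (rows) in the 12 libraries (columns), as log2(FPKM + 0.1) minus the gene's median over the libraries; red is above and blue below the median. The 3 darkest red cells are Cabp7 in the 10-month libraries labelled transgenic, and the darkest blue is Hpcal4 in 10-month control 2 (13.5 FPKM).

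The wider calcium-handling genes were read from 5 lists of relatives, targets and transporters, of which 64 genes beside the members are reported here, 51 of them tested. None passed a limma adjusted p of 0.05 in any comparison. At an unadjusted p under 0.05 there was 1 of the 51 (1.96%) for genotype at 10 months and for age in controls and 0 in the other 3 comparisons, below the shares over all genes given above. At 10 months 25 of the 51 were higher and 26 lower with the transgenic label, with a median log2 difference of -0.04 beside 0.01 over all genes. With members included, the calmodulin and CaBP list without Cabp7 had 1 higher and 3 lower (median -0.07), the neuronal calcium sensors 5 and 5 (-0.01), the calmodulin targets 10 and 11 (-0.04) and the calcium pumps and exchangers 9 and 4 (0.15). The list with the lowest median was that of the calcium buffers, with 3 higher and 8 lower and a median of -0.36; at 3 months the same list had 6 higher and 5 lower and a median of 0.04.

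Among the buffers, the gene under an unadjusted p of 0.05 at 10 months was Calr, calreticulin, the main calcium store protein of the endoplasmic reticulum. It was 82.1, 84.4 and 50.0 FPKM with the transgenic label and 115, 103 and 90.0 in controls, and the groups did not overlap, as for 3.89% of all genes in that direction. The log2 difference was -0.54 with SE 0.23 (limma adjusted p = 0.969), and -0.29 without the 10-month transgenic 3 library. Pvalb, the buffer of fast-spiking interneurons, was 56.6, 46.0 and 91.0 FPKM against 74.9, 38.9 and 20.9, and overlapped (0.65, SE 0.44, limma adjusted p = 0.969). Necab3, a neuronal EF-hand protein, had a log2 difference of -0.89 (SE 0.49, limma adjusted p = 0.969), with 18.0, 7.66 and 7.40 FPKM against 23.8, 17.3 and 16.1.

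Among the sensors outside the member set, Ncs1, which regulates synaptic transmission, showed again a high or a low level in each library. It was 5.68, 60.6 and 61.0 FPKM in the 10-month libraries labelled transgenic and 14.3, 65.0 and 6.55 in controls, and its log2 difference of 0.59 had an SE of 1.11 (limma adjusted p = 1). Hpcal1, a relative of Hpcal4, was 11.8 ± 2.68 FPKM in 10-month controls and 9.26 ± 0.827 in libraries labelled transgenic (SD, n = 3), a log2 difference of -0.32 with SE 0.20 (limma adjusted p = 0.969). Kcnip2, a subunit of voltage-gated potassium channels, differed by 0.26 with SE 0.57 (limma adjusted p = 1). Of the calmodulin targets, the kinase gene Camk1d differed by 0.34 (SE 0.25), the phosphodiesterase gene Pde1a by 0.78 (SE 0.62) and the adenylyl cyclase gene Adcy8 by -1.41 (SE 1.06), each with a limma adjusted p of 0.969. Adcy8 was listed at 0 in the 10-month transgenic 2 library and at 2.03 to 3.92 FPKM in the other 11, and without that library its difference was 0.17. Of the transport genes, the sodium-calcium exchangers Slc24a3 and Slc8a2 differed by 0.47 (SE 0.33) and 0.42 (SE 0.34), and Micu3, a regulator of the mitochondrial calcium uniporter, by -0.73 (SE 0.43), again with a limma adjusted p of 0.969.

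**Figure D4:**
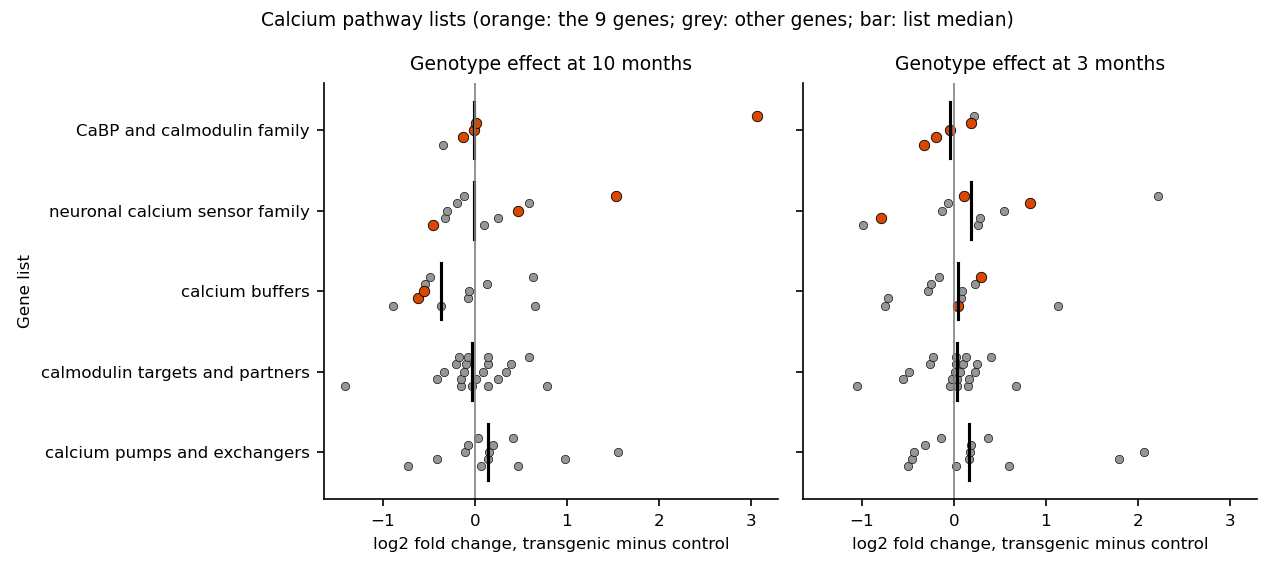
Transgenic minus control difference of log2(FPKM + 0.1) (x axis) of every tested gene of the 5 calcium lists (y axis) at 10 months (left) and 3 months (right); orange points are the 9 genes, grey points other genes of the lists, and the black bar is the list median. At 10 months the medians run from -0.36 for the calcium buffers to 0.15 for the pumps and exchangers, and the point at 3.07 is Cabp7.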

How the data were processed

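RNA of cortex from 12 mice was sequenced after ribosomal RNA depletion with a strand-specific kit, per the labels' protocols. HISAT2 2.0.4, SAMtools 0.0.19, StringTie 1.3.0 and R 3.4.2 with builds mm10 and GRCm38 are named, per the submitters' processing notes; not given in the sources used here were the annotation, the strand setting and the test the authors used. The authors deposited FPKM per gene and library in 2 tables, 1 for each age. The deposited tables also hold p-values, q-values and a fold ratio with its log2, per the file headers; these are quoted only as the authors' deposited table.

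FPKM of both tables were joined by gene, on the untested assumption that no scaling was done within a table. A gene was tested if any group averaged 1 FPKM or more, 9846 genes in all, as log2(FPKM + 0.1), with a mean per group in limma 3.58.1 (R 4.3.3, trend and robust) and Benjamini-Hochberg adjustment over all of them at 0.05. The labels call the replicates biological. The analysis was tested on simulated data. Relative depth was read from steps in the values of low genes, at which 9.09% to 13.2% of them fell, so whole reads were not recovered and no counting interval is given. Sequences and coordinates are from GENCODE M21 (GRCm38).

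The members and all lists were chosen with earlier results of these data known, and 1 gene of the lists is not reported here. Genes named beside the members are, for each list, up to 3 with the smallest unadjusted p at 10 months, the 5 most correlated with Cabp7, markers, and the label checks Mapt and Thy1. Zmat5, Nf2, Nipsnap1, Uqcr10, Npcd, Pi4kb, Sst and Rorb were added for their position, rank, role or values. Of the 13 marker lists, those for thalamus, striatum, cerebellum, astrocytes and microglia had sums that overlapped between the 10-month groups.

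Same-numbered libraries of the 2 genotypes did not deviate together (Pearson r from -0.123 to 0.0055 over genes). Libraries with different numbers gave -0.092 to 0.140. No pairing of the mice by number was seen, but with 3 libraries in a group the check cannot exclude it. Alternatives were pseudocounts of 1 and 0.01, quantile normalization, size factors, no filter, a filter at 5 FPKM, a replicate block, no trend, each age alone, low values set to missing, and each library left out.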

Additional observations from a re-analysis of the deposited data

How the results depend on the processing

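Under 10 alternatives and with each of 12 libraries left out, the count of the 8 tested members past a limma adjusted p of 0.05 stayed at 0 in every comparison an alternative could give. Fitting each age alone gives no age comparison. Few genes of any kind passed in these fits, at most 14 of 9213, at 3 months with each age alone. With the replicate block 0 of 9846 passed at 10 months. A count of 0 members does not stand apart from such shares. The replicate block left the count of members at 0 in all 5 comparisons, and no pairing of the mice by number was seen. The difference of Cabp7 at 10 months ran from 2.86 to 3.42 with a library left out and was 2.39 with a pseudocount of 1, which also gave 2.27 for the difference between ages in the genotype effect and 2.50 for age in transgenics. These values of Cabp7 were largely set by its choice and are a description. Signs changed for some genes. At 10 months Calm2 was -0.0050 with size factors and -0.040 after quantile normalization, Adcy8 was 0.17 with low values set to missing, and at 3 months Calm3 was 0.067 after quantile normalization. With a library left out, the 10-month range was -0.096 to 0.078 for Calm2, -0.11 to 0.091 for Calm3, -0.26 to 0.11 for Cabp1, -0.14 to 1.73 for Ncs1, -0.20 to 1.04 for Kcnip2, -2.37 to 0.17 for Adcy8 and -0.020 to 0.72 for Slc24a3. The 3-month range was -0.51 to 0.0033 for Cabp1, -0.053 to 0.79 for Calb1, -0.17 to 0.24 for Calb2 and -0.45 to 0.77 for Hpcal4. At 10 months the range was 0.61 to 2.39 for Hpcal4, 0.20 to 1.11 for Pvalb, 0.44 to 1.35 for Pde1a, 0.12 to 0.55 for Camk1d, 0.14 to 0.81 for Slc8a2, -1.31 to -0.67 for Necab3, -0.99 to -0.44 for Micu3 and -0.46 to -0.15 for Hpcal1. The count of other calcium genes past the threshold stayed at 0 under the same alternatives, in which few genes of any kind passed. The cause of the sign changes was not tested. The number of mice, 3 in a group, and the unknown depth limit the precision of all values.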
